A study of Mus musculus with 8 samples.

Results

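The 5 genes Ccl1, Ccl3, Ccl4, Ccl5 and Xcl1, which encode chemokines that T cells make after activation, were followed across 8 mouse bead arrays. They were picked by gene symbol and are read by 6 of the 25697 probes (5 of 16593 named genes), 2 of which belong to Ccl4. All 5 genes were detected on at least 2 arrays and so entered the comparisons with 7403 genes in all. The arrays held RNA of T cells from spleen and lymph nodes of male C57BL/6 mice in 4 states. Rejecting mice had received a tail skin graft from a BDF1 donor (a cross of C57BL/6 and DBA/2) with no further treatment and were used on day 7. Early tolerant mice (day 21) and tolerant mice (day 100) had been given the same kind of graft with a transfusion from the donor and MR-1, an antibody to CD40L. Naive mice had no graft. T cells of all 4 states were held with dendritic cells raised from donor bone marrow for 20 to 21 hours and were then sorted into a CD69+ and a CD69- fraction, so all 8 groups had met donor cells in culture. The sorting protocol in the labels names CD69+ for both fractions, and the fractions are taken here from the sample titles. Each state and fraction had 1 array, and the labels do not say how many mice stood behind an array.

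Chemokines are small secreted proteins that guide leukocytes through G protein-coupled receptors. Ccl3, Ccl4 and Ccl5 draw monocytes and effector T cells, and Ccr1 is a receptor of Ccl3 and Ccl5. Ccl1 is the ligand of Ccr8, a receptor of type 2 helper and regulatory T cells, and Xcl1 draws cross-presenting dendritic cells that carry Xcr1. Ccl3, Ccl4 and Xcl1 are transcribed soon after the antigen receptor is triggered, whereas Ccl5 is known as a late gene of T cells and is kept as a store of mRNA in resting memory CD8 T cells. Dendritic cells and macrophages also make Ccl3, Ccl4 and Ccl5.

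Every value rests on which probe identifier belongs to which row of intensities. The deposited table of raw intensities and the deposited normalized table assign different rows to 5 of the 6 member probes, and the identifiers of the normalized table were used. Under them both Ccl4 probes were higher on every CD69+ array than on every CD69- array, at raw intensities of 1760 to 16979 against 544 to 1233 for the brighter probe and 589 to 3940 against 158 to 275 for the other. Under the identifiers printed in the raw table, 1 Ccl4 probe lay at 82.8 to 89.2 on CD69+ arrays and 78.8 to 94.3 on CD69- arrays, while the other had 461 to 5338 and 97.3 to 210. The T cell gene Cd3d read 14063 to 20895 on CD69+ arrays and 29354 to 36031 on CD69- arrays under the normalized table's identifiers, against 652 to 752 and 703 to 1025 under the printed ones.

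The first question was how the CD69+ cells, which carry an early activation marker, differed from the CD69- cells sorted beside them. The Cd69 gene read 4436 to 7543 on the CD69+ arrays and 1903 to 3004 on the CD69- arrays, a log2 difference of 1.41 (SE 0.10, adjusted p = 4e-05 in limma), so its RNA followed the labels. Ccl3, Xcl1, Ccl4 and Ccl1 were higher in the CD69+ fraction, by at least 13.5-fold, 10.3-fold, 7.08-fold and at least 1.45-fold over the 4 states, and Ccl5 was 2.87-fold lower. All 5 passed limma's test with recipient state as a block, at adjusted p of 1.16e-05 to 0.00704 over 7403 genes. Calls were common in this comparison, at 73.3% of genes, with 35.2% of all genes higher and 38.0% lower, so the 4 members higher and 1 lower are to be read against those shares. The 4 states stand in for replicates here, so the p-values measure how steady a difference was over the states, and the number of arrays limits the precision.

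Promoter letters were available for the members Ccl1, Ccl3 and Xcl1, which rose together. They are shown as the 250 bases before the start of each gene (RefSeq, GRCm38.p6), with capitals marking matches on either strand to the NFAT core GGAAA or to the AP-1 letters TGANTCA.
Ccl1 (chr11:82179813-82180062, minus strand): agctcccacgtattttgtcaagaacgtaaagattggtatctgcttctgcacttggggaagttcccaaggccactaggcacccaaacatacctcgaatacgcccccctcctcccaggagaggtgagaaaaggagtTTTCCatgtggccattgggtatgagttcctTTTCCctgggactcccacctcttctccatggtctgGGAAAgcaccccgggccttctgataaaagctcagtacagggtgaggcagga
Ccl3 (chr11:83649379-83649628, minus strand): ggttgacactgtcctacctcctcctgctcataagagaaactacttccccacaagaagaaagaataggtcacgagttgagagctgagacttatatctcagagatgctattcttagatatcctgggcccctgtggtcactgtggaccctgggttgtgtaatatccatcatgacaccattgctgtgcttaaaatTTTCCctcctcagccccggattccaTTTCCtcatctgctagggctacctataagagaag
Xcl1 (chr1:164935523-164935772, minus strand): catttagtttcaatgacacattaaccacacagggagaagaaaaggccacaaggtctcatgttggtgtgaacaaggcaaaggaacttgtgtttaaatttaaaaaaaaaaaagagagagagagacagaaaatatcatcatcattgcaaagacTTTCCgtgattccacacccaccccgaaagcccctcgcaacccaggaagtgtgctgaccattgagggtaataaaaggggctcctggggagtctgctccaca
The Ccl1 window held 3 matches to the NFAT core, the nearest 51 bases from the start. The Ccl3 window held 2 NFAT core matches, within 59 bases of the start, and the Xcl1 window 1, at 100 bases. The AP-1 letters were in none of the 3 windows. Of 32851 promoter windows of this length, 55.6% held the NFAT core and 6.75% the AP-1 letters, so the NFAT matches alone are ordinary. A match describes the letters and is not evidence of binding.

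Ccl3 gave the widest contrast among the members. Its normalized signal was 4664, 629, 339 and 2304 in CD69+ cells of rejecting, early tolerant, tolerant and naive mice, against 145, 37.3, 31.1 and 51.9 in the CD69- cells of the same states. The lowest CD69+ array was above the highest CD69- array, as for 31.7% of all genes in this direction. Ccl3 was detected on 1 of the 4 CD69- arrays, so the fitted log2 difference of 4.50 (SE 0.32, 4 pairs; limma, adjusted p = 3.49e-05) is partly set by signal below detection. With the other 3 CD69- arrays at the faintest signal that counted as detected, the mean was 3.75, or at least 13.5-fold. The array that detected it was that of rejecting mice, where the CD69+ signal was 32.1-fold higher. In the other states only a bound can be given: at least 8.09-fold in early tolerant, 4.29-fold in tolerant and 29.7-fold in naive cells.

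Ccl4, which lies next to Ccl3 on chromosome 11, was detected on all 8 arrays. The brighter of its 2 probes had signals of 15398, 4784, 1562 and 10119 in CD69+ cells of rejecting, early tolerant, tolerant and naive mice, and of 1204, 788, 538 and 906 in the CD69- cells. The fractions did not overlap. The log2 difference was 2.82 (SE 0.34, 4 pairs, adjusted p = 0.000326 in limma). It was widest in rejecting (3.68) and naive cells (3.48), smaller in early tolerant cells (2.60) and smallest in tolerant cells (1.54). The second probe gave 3.99 in rejecting, 2.38 in early tolerant, 2.33 in tolerant and 3.57 in naive cells, so the probes gave like values except in tolerant cells.

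Xcl1, also called lymphotactin, differed by a similar amount in every state. It had signals of 1796, 2168, 1230 and 2247 in CD69+ cells of rejecting, early tolerant, tolerant and naive mice, against 163, 154, 171 and 224 in CD69- cells. The fold was 11.0 in rejecting, 14.0 in early tolerant, 7.19 in tolerant and 10.1 in naive cells. The mean log2 difference was 3.36 (SE 0.16, 4 pairs, adjusted p = 1.16e-05 in limma), with a 95% interval of 2.98 to 3.74.

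Ccl1 was dim. Its signals were 117, 109, 101 and 129 in CD69+ cells of rejecting, early tolerant, tolerant and naive mice, and 28.3, 25.5, 26.7 and 26.2 in CD69- cells. All 4 CD69+ arrays detected it, with detection p-values up to 0.00251, and no CD69- array did, with detection p-values of 0.444 to 0.821. The fitted log2 difference of 2.09 (SE 0.10, adjusted p = 1.16e-05 in limma) is therefore partly set by signal below detection, and the bound over the 4 states was at least 1.45-fold higher. Raw intensities spanned 188 to 236 on the CD69+ arrays, against 80.9 to 91.3 on the CD69- ones.

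Ccl5 went the other way. Its signals were 1874, 6957, 9234 and 3212 in CD69+ cells of rejecting, early tolerant, tolerant and naive mice, against 11995, 14247, 11995 and 12867 in CD69- cells. Every CD69+ array lay below every CD69- array, as for 34.4% of all genes in that direction. The log2 difference was -1.52 (SE 0.35, 4 pairs, adjusted p = 0.00704 in limma), with a 95% interval of -2.37 to -0.67. Its size varied more than that of Xcl1: Ccl5 was 6.40-fold lower in CD69+ cells of rejecting mice, 2.05-fold lower in early tolerant, 4.01-fold in naive and 1.30-fold in tolerant mice. The CD69- signals stayed within 1.19-fold of each other, so the spread over the states came from the CD69+ arrays. The equal CD69- values of rejecting and tolerant mice are equal ranks after quantile normalization, with raw intensities of 11413 and 10229. In tolerant mice the raw CD69+ intensity was 10020, close to the 10229 of the CD69- cells, so the 1.30-fold difference there rests on normalization.

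**Figure D1:**
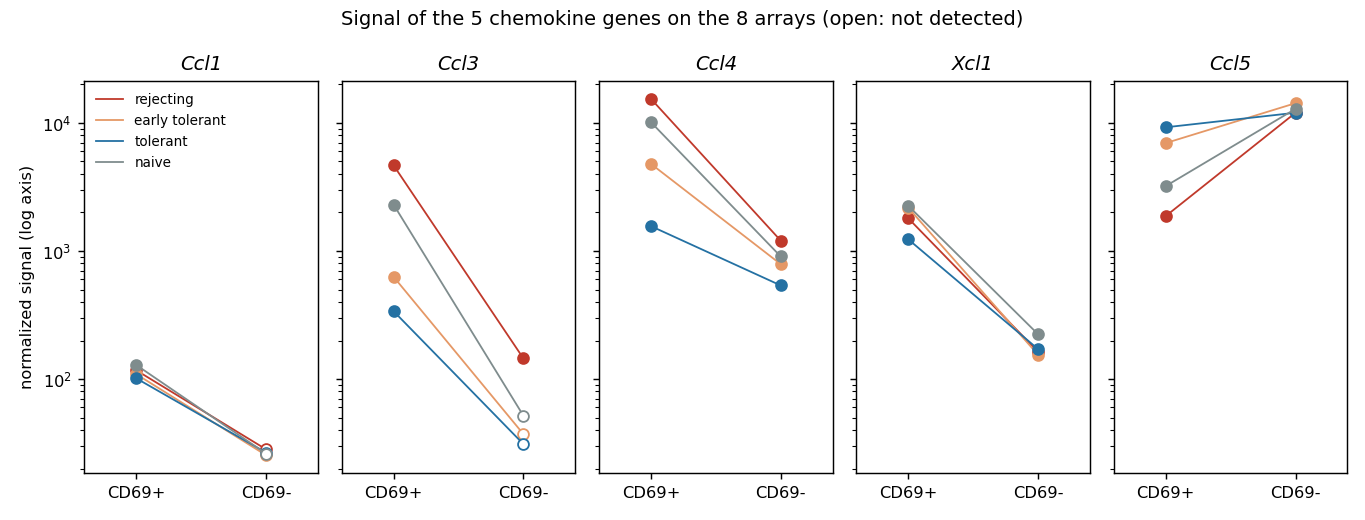
Normalized signal (log axis) of the 5 genes in CD69+ and CD69- cells, with a line joining the arrays of each recipient state and open circles where the probe was not detected; heights are not comparable between genes. Ccl1, Ccl3, Ccl4 and Xcl1 are higher in CD69+ cells in all 4 states, and Ccl5 is lower, at 1874 in CD69+ and 11995 in CD69- cells of rejecting mice.

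Set against Ccl5 within each state, the other members separated on every pair of arrays. The log2 difference between fractions of Ccl3 exceeded that of Ccl5 by 7.68 in rejecting, 5.11 in early tolerant, 3.82 in tolerant and 7.47 in naive mice. For Xcl1 the excess over Ccl5 was 3.22 to 6.14, for Ccl4 1.92 to 6.36 and for Ccl1 2.30 to 4.73, in each case smallest in tolerant and largest in rejecting mice. The same Ccl5 differences enter each excess, and they were widest in rejecting (-2.68) and narrowest in tolerant mice (-0.38). The shared order of the states is therefore not separate evidence from each member. The exact two-sided sign-flip permutation test over the 4 states gave p = 0.125 for each of the 4 members, and 0.125 adjusted over them. That is the smallest p that 4 pairs allow, so this test could not have passed 0.05. The values for Ccl1 and Ccl3 include signal below detection in CD69- cells.

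**Figure D2:**
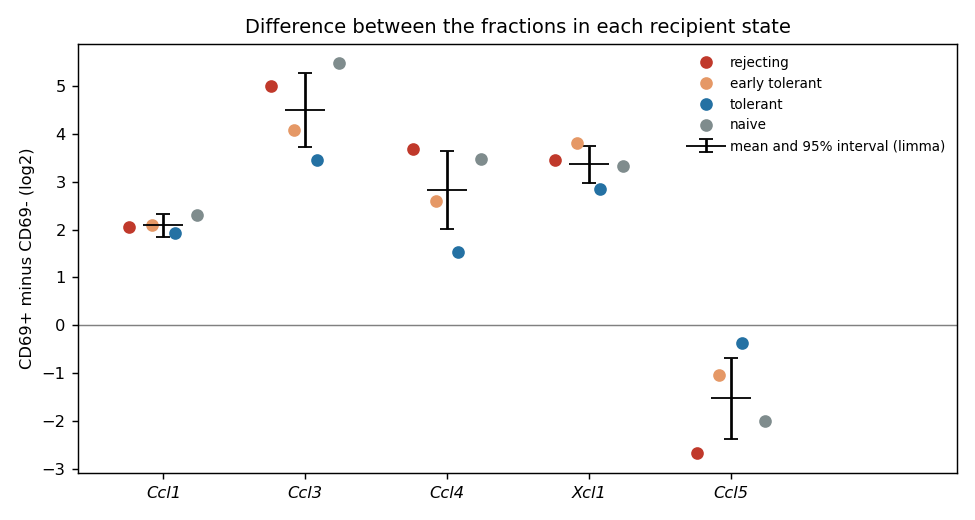
CD69+ minus CD69- log2 difference of each gene, with 1 point per recipient state and a bar for the mean over the 4 states with its 95% interval from limma. Ccl5 lies below 0 in each state, between -2.68 in rejecting and -0.38 in tolerant cells, while all points of the other 4 genes lie above 1.5. Points of Ccl1, and those of Ccl3 outside rejecting mice, include CD69- signal below detection, so their heights are not measured differences.

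Recipient states were compared within each fraction next. With 1 array on each side there is no replicate check, so these are values without a test, and differences of at least 1.5-fold are counted. Against naive CD69+ cells, Ccl3 was 2.02-fold and Ccl4 1.52-fold higher in rejecting cells, where 6.59% of genes were at least 1.5-fold above naive. The Ccl4 value is near the limit, at 1.50-fold on the second probe and at a log2 difference of 0.40 with median scaling, which is below it. Ccl5 was 1.71-fold lower in the same cells, where 5.81% of genes passed in that direction, and Xcl1 and Ccl1 stayed within 1.5-fold, at log2 differences of -0.32 and -0.14.

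Early tolerant CD69+ cells had less Ccl3 and Ccl4 than naive ones, by 3.66-fold and 2.12-fold, and 2.17-fold more Ccl5. At least 1.5-fold differences from naive were found for 3.31% of genes below and 4.69% above. The Ccl3 difference was the second from the bottom of 7403 genes. Xcl1 and Ccl1 differed from naive by -0.05 and -0.24 on the log2 scale.

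Tolerant CD69+ cells on day 100 stood furthest from naive cells for each member. Ccl3 was 6.80-fold lower, Ccl4 6.48-fold and Xcl1 1.83-fold lower, with 4.48% of all genes at least 1.5-fold below naive, and Ccl5 was 2.87-fold higher, with 6.7% above. Ccl3 and Ccl4 ranked 2 and 3 from the bottom of 7403 genes and Ccl5 ranked 74 from the top. The second Ccl4 probe gave 4.98-fold. Ccl1 had a log2 difference of -0.35. These comparisons share the naive array, so they are not independent of each other.

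Without the naive array, rejecting CD69+ cells had 13.8-fold more Ccl3 and 9.86-fold more Ccl4 than tolerant ones, ranks 3 and 5 of 7403 genes, and 4.93-fold less Ccl5. At least 1.5-fold differences between rejecting and tolerant cells were found for 7.39% of genes above and 8.16% below. From high to low, Ccl3 and Ccl4 both ran rejecting, naive, early tolerant and tolerant in CD69+ cells, an order that 5.02% of genes shared. Ccl5 ran in exactly the reverse order, as did 6.65% of genes. Xcl1 ran naive, early tolerant, rejecting and tolerant, with neighbours 1.04-fold, 1.21-fold and 1.46-fold apart. Since no state has a second array, it cannot be said which neighbours in these orders differ beyond the spread between samples.

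In the CD69- cells the members varied less over the states. Ccl5 differed from naive by -0.10 to 0.15 on the log2 scale and Xcl1 by -0.53 to -0.38, or -0.65 in early tolerant cells with median scaling. Ccl4 was 1.68-fold lower in tolerant than in naive CD69- cells, where 3.0% of genes were at least 1.5-fold lower and 3.23% were that much higher, and it followed the same order of states as in CD69+ cells. Ccl3 was at least 1.87-fold higher in rejecting than in naive CD69- cells (there 3.67% of genes lay 1.5-fold or more above naive and 4.42% below), and Ccl1 was not detected on any of these arrays.

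The series names 3 conditions for candidate rejection genes: in CD69+ cells of rejecting mice at least 1.5 times the level of tolerant mice, at least 1.5 times that of CD69- cells, and a signal of at least 500. On the deposited normalized values Ccl3 met all 3, at 11.4 times, 21.2 times and 4743, and so did both Ccl4 probes. Over all probes 138 of 25697 did (0.537%). Xcl1 missed through its 1.43-fold excess over tolerant cells, and Ccl1 through both a 1.09-fold excess over tolerant cells and a signal of 196. The matching conditions for candidate tolerance genes were met by 0.475% of probes and by no member. Ccl5 had 2.83 times the naive value in tolerant CD69+ cells and a value of 9313, but only 0.771 times the value in CD69- cells.

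Markers of other cells moved along the same arrays. The summed signal of 18 dendritic and myeloid markers was 4722, 28987, 42122 and 11780 in CD69+ cells of rejecting, early tolerant, tolerant and naive mice, against 2042, 4814, 7131 and 3526 in CD69- cells. In CD69+ cells this sum had the order of Ccl5 over the states and the reverse of the order of Ccl3 and Ccl4. Lyz2 at 16132 and Cd74 at 9303 made up much of the sum in tolerant CD69+ cells. The median log2 signal of the 18 markers had the same order, at 7.27, 9.43, 10.07 and 8.06. Not every marker did: Cd80 was highest in rejecting CD69+ cells, at 713, against 538 in early tolerant, 532 in tolerant and 348 in naive cells. Of 15 markers tested, 14 rose and 1 fell in CD69+ cells (median log2 1.93), led by Cd40 at 3.25, Cd80 at 3.14 and Fscn1 at 2.86, with Ctss at -0.75, Adgre1 at 0.90 (not detected in CD69- cells) and Fcer1g at 1.24 the lowest. Itgax, Itgam and Flt3 were not detected on any array. The sum was lowest in rejecting CD69+ cells, where Ccl3 and Ccl4 were highest. The part of these cells in the Ccl5 values was not tested. The labels name a sort on CD3 and CD69. After it, 15 of the 18 markers were detected in tolerant and 11 in rejecting CD69+ cells. Whether dendritic cells remained after the sort was not tested.

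Signals of T cell marker genes also differed between the arrays. Cd8b1, a chain of the CD8 coreceptor, had signals of 25776, 13337, 8938 and 14736 in CD69+ cells of rejecting, early tolerant, tolerant and naive mice, against 49152, 49152, 48551 and 48551 in CD69- cells. It fell by 1.74 on the log2 scale in CD69+ cells (SE 0.23, adjusted p = 0.000471 in limma), beside the fall of Ccl5. Over the states of the CD69+ fraction it had the order of Ccl3 and Ccl4 and the reverse of that of Ccl5. Cd8a was not detected on any array. In bulk RNA, fewer cells of a type and less RNA per cell cannot be told apart, and the part of CD8 cells in these values was not tested. Of 7 pan-T markers, 4 fell and 1 rose: Cd28 by 1.37, Cd3d by 1.14 and Cd3e by 1.13, while Thy1 rose by 0.72 and Cd2 and Cd5 had -0.13 and 0.04. Cd4 fell by 0.29 and Izumo1r rose by 1.20. Cd79b, a B cell gene, fell by 0.90, and 3 other B cell markers, all 5 basophil and mast cell markers and the NK cell genes Ncr1 and Klri2 were not detected on any array. Eomes rose by 0.86.

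**Figure D3:**
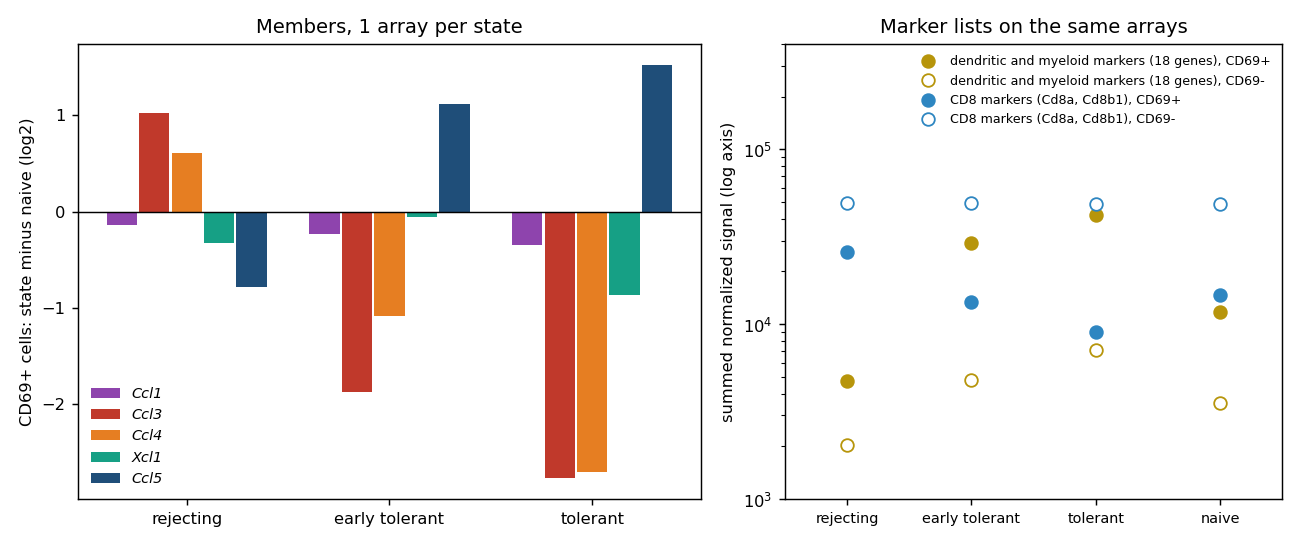
Left, log2 difference of each member from naive in CD69+ cells of the 3 other states, 1 array each: Ccl3 and Ccl4 are at -2.77 and -2.70 and Ccl5 at 1.52 in tolerant cells. Right, summed normalized signal (log axis) of 2 marker lists in CD69+ (filled) and CD69- cells (open): the dendritic and myeloid sum reaches 42122 in tolerant CD69+ cells, where the CD8 sum, which is nearly all Cd8b1, is lowest.

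On the receiving side, Ccr8, the receptor of Ccl1, was detected in CD69+ cells. It had signals of 1573, 1489, 1137 and 1574 in CD69+ cells of rejecting, early tolerant, tolerant and naive mice. No CD69- array detected it, at signals of 34.7, 34.4, 39.1 and 30.5, which puts CD69+ cells at least 18.2-fold above them (limma, adjusted p = 6.8e-06). Ccr1, Ccr3, Xcr1 and the scavenging receptors Ackr1 and Ackr2 were not detected on any array.

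Other chemokine ligands were mostly too dim to test. Of 35 on the array, 11 were tested, of which 8 rose, 1 fell and 2 did not pass (median log2 1.46, or 0.45 with genes undetected in CD69- cells at their bound, against -0.04 over all genes). Without the early tolerant pair 4 rose, and with the mean of the probes 0 fell. Cxcl16, which is made by antigen-presenting cells, rose by 2.63, the dendritic cell chemokine Ccl17 by 2.43 and Ccl9 by 1.94. Only 1 CD69- array detected Cxcl16, so the size of its difference is partly set by signal below detection. Ccl27a fell by 0.49, Ccl25 had 0.45 and the platelet chemokine Pf4 had 0.91, with no CD69- array detecting it; neither of these 2 passed. Ccl17 had signals of 96.1, 3056, 1940 and 555 in CD69+ cells of rejecting, early tolerant, tolerant and naive mice, so it was lowest in rejecting cells. On chromosome 11, Ccl5, Ccl9, Ccl6, Ccl3 and Ccl4 follow each other with no other protein-coding gene between them in RefSeq. Ccl5 thus fell beside Ccl9, Ccl3 and Ccl4, which rose. Ccl6 had a fitted log2 difference of 0.93. Only 2 CD69+ arrays and no CD69- array detected it, so no bound on its fold can be given. Ccl2, Ccl7, Ccl8, Ccl11 and Ccl12, next to Ccl1, were not detected on any array.

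Cytokines of activated T cells rose with the 4 members. All 13 tested passed and were higher in CD69+ cells (median log2 3.34, or 2.82 with bounds). Csf2, which encodes GM-CSF, was at least 26.1-fold higher and detected on 1 of 4 CD69- arrays. Il17f was at least 8.79-fold higher, and Ifng, detected on 2 of 4, was at least 14.8-fold higher. Smallest by the fitted difference were Il10 at 1.16, Il5, at least 1.21-fold higher, and Il13, at least 2.64-fold higher. Il10 was detected on 2 CD69+ arrays and 1 CD69- array. The bound of Il21, at least 1.43-fold higher, was below that of Il13. Ifng had signals of 19170, 841, 352 and 2896 in CD69+ cells of rejecting, early tolerant, tolerant and naive mice, the order of Ccl3 and Ccl4.

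Transcription factors driven by the T cell receptor were split. Of 15 tested, 8 rose and 4 fell (median log2 0.58), where 35.2% of all genes rose and 38.0% fell. Irf4, a factor of antigen receptor signalling, rose by 4.24, Batf3 was at least 2.35-fold higher and Egr2 rose by 2.20. Fos fell by 1.73, Nfatc1 by 1.29 and Nfatc3 by 1.14. Among 12 factors of effector and memory cells, 6 rose and 5 fell (median log2 0.28, or 0.15 with bounds), to be read against the same shares. Irf8 rose by 3.04, Tbx21, the factor of type 1 helper cells, by 1.69 and Bhlhe40 by 1.54. Klf2, a factor of quiescent T cells, fell by 3.12, Stat4 by 1.07 and Klf13, known as an activator of late Ccl5 transcription in T cells, by 2.29 (SE 0.14, adjusted p = 1.97e-05 in limma). Klf13 had signals of 1584, 1412, 1412 and 1482 in CD69+ cells of rejecting, early tolerant, tolerant and naive mice, against 5952, 8217, 6295 and 8656 in CD69- cells, so unlike Ccl5 it was nearly level over the states of the CD69+ fraction.

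Genes of memory CD8 T cells and NK cells were mostly lower in CD69+ cells, as Ccl5 was. Of 14 tested, 9 fell, 3 rose and 2 did not pass (median log2 -0.68), where 38.0% of all genes fell and 35.2% rose. Klrd1, a subunit of the CD94 receptors, fell by 2.87, the granzyme gene Gzmm by 2.39, and the perforin gene Prf1 fell by 1.80. Cd160 rose by 2.43, the terminal effector marker Klrg1 by 1.92 and Il2rb, a chain of the IL-2 receptor, by 1.21. Only 1 CD69- array detected Klrg1, so its difference is partly set by signal below detection. Klrd1 had signals of 1877, 944, 676 and 676 in CD69+ cells of rejecting, early tolerant, tolerant and naive mice, and so was highest in the rejecting cells, where Ccl5 was lowest. The same held for 8 of the 9 genes that fell, among them Prf1 with 1250, 542, 453 and 586. Over the states of the CD69+ fraction these 8 genes thus did not follow Ccl5. Gzmm and Gzmk, which are among them, were each detected on 3 CD69+ arrays. The share of all genes that were highest in rejecting cells was not counted.

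**Figure D4:**
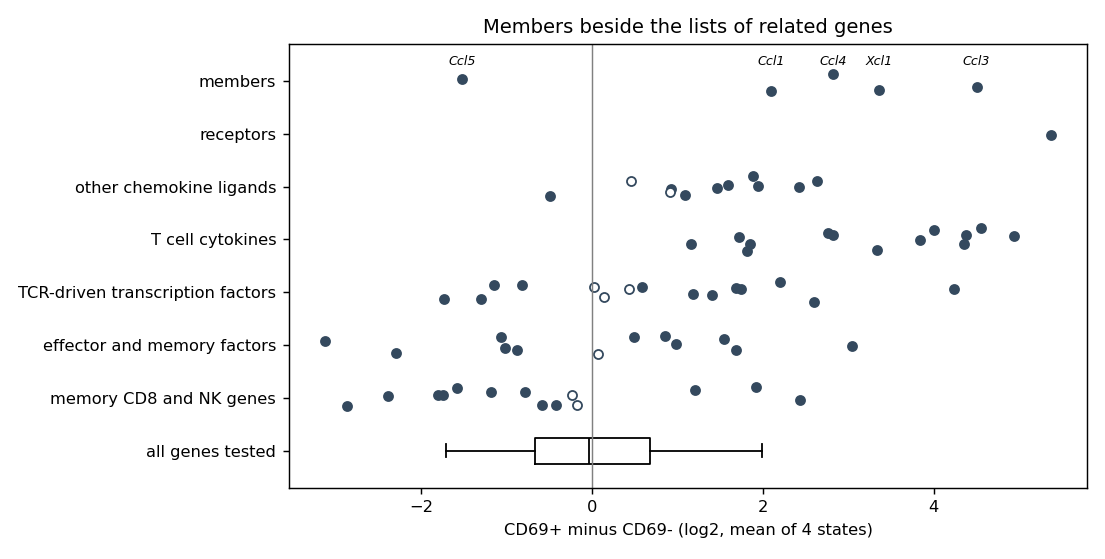
CD69+ minus CD69- log2 difference of each tested gene, by list, with filled points for an adjusted p under 0.05 in limma and open points otherwise; the box gives the quartiles and median of all 7403 genes, with whiskers at the 5th and 95th percentiles. Ccl5 at -1.52 lies among the memory CD8 and NK genes on this axis, and the other 4 members lie at 2.09 to 4.50, among the T cell cytokines. The points are fitted values, and those of Ccl1 and Ccl3 include signal below detection.

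Genes most like each member were taken by the root mean square difference of the centred log2 values over the 8 arrays, as a description. Nearest to Xcl1 were Tnf (0.23), H3c3 (0.24) and Smyd2 (0.25), against a spread of Xcl1 itself of 1.70. Nearest to Ccl3 were Irf4 (0.80), Ifng (0.81) and Phlda3 (0.89), with a spread of 2.56, and nearest to Ccl4 the amino acid transporter gene Slc7a3 (0.49), the cytokine gene Il24 (0.53) and the glycine transporter gene Slc6a9 (0.58), with a spread of 1.69. Nearest to Ccl5 were Ttyh3 (0.29), Lrrfip1 (0.40) and Tmem86a (0.42), with a spread of 1.00. Ttyh3 had signals of 259, 658, 1123 and 419 in CD69+ cells of rejecting, early tolerant, tolerant and naive mice, the order of Ccl5. Nearest to Ccl1 were Acot7 (0.09), Cct3 (0.09) and Mrps22 (0.10), with a spread of 1.05. Among the members, Xcl1 and Ccl1 were closest (0.68) and Ccl3 and Ccl5 furthest apart (3.52). Ccl1 was not detected on the CD69- arrays, and Ccl3 there only in rejecting mice. Their distances, also to the genes named, are therefore partly set by signal below detection.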

How the data were processed

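RNA was hybridised to 8 MouseRef-8 arrays (Illumina), and the submitters' processing notes name BeadStudio 3.1.3. The deposited raw table holds a bead intensity per probe with its detection p-value, per the file headers. The deposited normalized table holds intensities on a linear scale with no method named in the file; its columns shared the same sorted values, so the values show quantile normalization without centring. Rows of the tables were matched through their values on the 8 arrays (25697 of 25697 one to one), and 20106 probes carried another identifier in the raw table; those of the normalized table were used.

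From the deposited intensity values, log2 signals were computed with the neqc function (limma 3.58.1 under R 4.3.3; offset 16). Folds of dim genes depend on these settings. Ccl1 had a log2 difference of 2.09, against 1.16 without background correction and 1.29 with an offset of 50. Each gene took its brightest probe, and a gene was tested if at least 2 arrays gave a detection p under 0.01 (7403 genes; 37.3% to 40.1% of probes were detected per array). Array groups came from the titles. The fractions were compared by limma with state as a block and 3 residual degrees of freedom, 2-sided, with Benjamini-Hochberg adjustment over all genes and a threshold of 0.05. The pairing rests on the design: both fractions of a state came out of 1 sorted culture; deviations of paired arrays correlated by 0.209 to 0.345 across genes. Where no array of a group detected a gene, its fold is "at least", set against the faintest signal that counted as detected on that array. The procedure was tested on simulated data. The 5 members and all lists were chosen with earlier results of these data known. Named genes are the members, detected receptors, the 3 highest and 3 lowest of each list, and the 3 genes most like each member. Ccl17, Ifng, Klf13, Klrd1 and Ttyh3 were given by state after their values were seen.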

Additional observations from a re-analysis of the deposited data

How the results depend on the processing

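The direction of Ccl5 depends on the probe identifiers, and those printed in the raw table are out of register with the normalized table. Under the printed identifiers the 2 Ccl4 probes differ in pattern, and the T cell gene Cd3d reads 652 to 752 on CD69+ arrays. With the printed identifiers, an alternative chosen after seeing the data, the Ccl5 probe carries the row that the normalized table gives to Ccl4. The log2 difference of Ccl5 between CD69+ and CD69- cells then becomes 2.82 (adjusted p = 0.000373 in limma). Under the same identifiers Ccl4 takes the row of Ccl3, at 4.50, and Ccl1 and Ccl3 take rows too dim to test. With the normalized table's identifiers all 5 members kept their direction and their call in every other alternative: median scaling, no background correction, the deposited normalized values, an offset of 50, no filter, the mean of the probes, no replicate block for the state, and each state pair left out. Without 1 pair, Ccl5 had -1.90 to -1.14 (adjusted p = 0.00268 to 0.035), Ccl4 2.54 to 3.25, Ccl3 4.17 to 4.85, Xcl1 3.21 to 3.53 and Ccl1 2.03 to 2.15. Without the replicate block, Ccl5 had -1.52 (adjusted p = 0.0104). The size of dim genes depended on background correction, with Ccl1 at 1.16 and Ccl3 at 3.33 in the lowest settings. Other chemokine ligands higher in CD69+ cells numbered 4 to 10 with a pair left out, with 4 without the early tolerant pair, and 0 were lower with the mean of the probes. Median scaling moved the median over all genes to 0.10, against -0.04; with it, rejecting minus naive CD69+ cells had 0.40 for Ccl4, and early tolerant minus naive CD69- cells had -0.65 for Xcl1. Replicate arrays of a state do not exist, so state differences carry no error.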

Other observations

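The tables assign the chemokine rows differently in a way that a reader of the raw file would meet at once. The row printed for Ccl5 reads 1760 to 16979 on CD69+ arrays and 544 to 1233 on CD69- arrays, values which the normalized table gives to Ccl4. The row printed for Ccl3 holds 111 to 124 and 102 to 114 and is that of Ccl27a in the normalized table. The row printed for 1 Ccl4 probe is that of Ccl28 and the row printed for the other is that of Ccl3, while the row printed for Ccl1 is that of Cckar. Only Xcl1, of the 5 members, has the same row in both tables. The rows thus belong, in 4 of the 6 cases, to another chemokine gene.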
